A study of Capra hircus with 12 samples.

Results

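Follicles in the growth phase of the hair cycle were compared with follicles at rest, using the 8 RNA-seq libraries whose labels give the growth stage as anagen (May and September) or telogen (February and March), of 12 libraries in all. The animals were goats (Capra hircus) aged 1.5 years, and the tissue was the secondary hair follicle of the skin, which makes cashmere. Each month had 1 female and 1 male library, so each stage had 4, and no treatment or altered allele is named in the labels. The 4 catagen libraries (November and December) entered the statistical fits for their estimate of the spread, and whether the same goats were sampled in more than 1 month is not given. No breed is given either. The p-values between stages reflect only the spread between single libraries, in which month and sex differ within each stage. In the fits by month the spread is that between the female and male library of each month. All anagen libraries came from May or September and all telogen libraries from February or March. Stage therefore cannot be told apart from season or date of sampling. The question was which transcripts separate growing from resting follicles, which of them do so in both anagen months, and which belong to May or September.

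A hair follicle cycles through growth (anagen), regression (catagen) and rest (telogen). In anagen, matrix cells at the base of the follicle divide and differentiate into the hair shaft, built of hair keratins and keratin-associated proteins, and into the inner root sheath that moulds it, while the outer root sheath surrounds both. Stem cells of the bulge and the dermal papilla, a cluster of mesenchymal cells under the matrix, exchange Wnt, hedgehog, BMP and FGF signals that start and end growth, and in cashmere goats the cycle follows day length through hormones.

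The deposited values carry the heading TPM, but they summed to 904623 to 1076815 in these 8 libraries and had been rescaled in a way that is not given, so they are called values here and the read depth is unknown. Every log2 difference below is anagen minus telogen on the log2(value + 1) scale, which understates the change of low genes. A gene passed at a Benjamini-Hochberg adjusted p under 0.05 in limma, over 16095 tested genes of 20326. Values are given in the order May female, May male, September female, September male for anagen and February female, February male, March female, March male for telogen. The first principal component of the 8 libraries held 61.4% of the variance and separated the stages, with anagen from -44.8 to -25.7 and telogen from 44.5 to 48.0 except the March male, at 14.7. Transcripts of the mitochondrial genome took 1.53 to 2.42% of the signal in anagen, 9.88 to 11.8% in 3 telogen libraries and 4.63% in the March male, and cytosolic ribosomal proteins took 17.8 to 22.5% against 12.8 to 17.9%. Of 12 defining follicle markers 8 were found by name in the data. These were KRT14, KRT5, KRT25, KRT27, KRT35, SOX9, LHX2 and TCHH, all above 0 in every library. Against the label, the picture among genes commonly used to mark anagen was mixed: hair shaft and inner root sheath keratins were higher in the libraries labelled anagen, and SHH, LEF1 and MKI67 were lower, as given below. In bulk tissue, fewer cells of a type and less RNA per cell cannot be told apart.

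Of the tested genes, 3811 (23.7%) were higher and 4701 (29.2%) lower in anagen, 52.9% in all, of which 841 and 445 changed at least 2-fold. The median over all genes was -0.07. Without the March male, which stands apart from the other telogen libraries, 4039 were higher and 4704 lower. With mitochondrial and ribosomal protein transcripts removed and the libraries rescaled, the median of all genes moved to -0.18 and the split to 3023 higher and 5673 lower, so a member near these medians is read against them. Values of all 4 anagen libraries lay above all 4 telogen libraries for 3230 genes (20.1%) and below them for 3726 (23.2%). Because so much of the transcriptome passed, the count in each gene list below is set against 23.7% and 29.2%. Genes printed below with a value in every library kept their call between the stages in every alternative run, up to 21 a gene, among them each library and each whole month left out, unless a loss is stated. Whether a gene passed in both months, in 1 month alone or in opposite directions was tracked apart from this. It is given with the genes of 1 month alone and of opposite directions. For genes shared by both months it is given as counts and beside some of them.

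May against telogen gave 3354 higher (20.8%) and 3826 lower genes (23.8%), and September against telogen 2949 (18.3%) and 3230 (20.1%). Both comparisons use the same 4 telogen libraries. A total of 2400 genes (14.9%) were higher and 2497 (15.5%) lower in both months, with a change of at least 2-fold in each month for 576 and 255 of them. Their median log2 differences were 0.88 in May and 0.78 in September for the higher genes and -0.70 and -0.66 for the lower. The number shared rested on 1 library: without the September female it was 113 higher and 111 lower. It was 1335 and 1071 with the May female left out, 1597 and 1322 with the May male left out, 1564 and 1371 with the September male left out, and 2974 and 3128 with the March male left out. Using May against March and September against February, which share no library, gave 1721 and 1554. Of the 120 genes named by rule that passed in both months, 111 no longer did so without the September female and 9 passed in both months under all alternatives run. A further 937 higher (5.82%) and 1321 lower genes (8.21%) passed in May only, and 539 (3.35%) and 732 (4.55%) in September only, without passing the test of September against May, so those months were not told apart. Genes that passed that direct test were few, 22 of 16095 (0.137%), 5 higher in September (0.0311%) and 17 lower (0.106%).

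**Figure D1:**
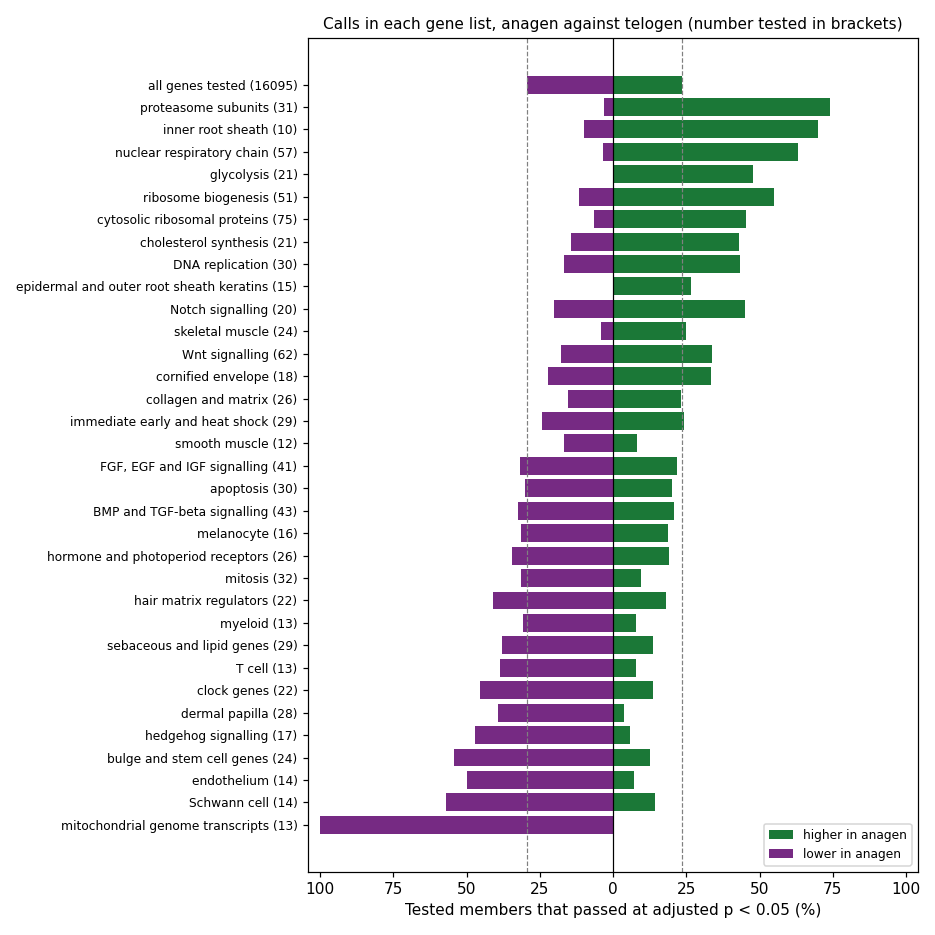
Share of the tested members of each gene list that were higher (right) or lower (left) in anagen at an adjusted p under 0.05, in percent, for lists with at least 10 tested members, ordered by the difference of both shares; the dashed lines mark the shares over all genes, 23.7% and 29.2%. Proteasome subunits, the inner root sheath and the nuclear respiratory chain stand at the upper end and the 13 mitochondrial genome transcripts at the lower end, and the median of the cornified envelope, collagen, T cell, myeloid and immediate early lists changes sign with the scaling.

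Most tested keratins of the hair shaft were higher in anagen. Of 16 listed keratins only 8 were found by name in the data. Of these 8 members 7 were higher and 0 lower, with a median log2 difference of 1.09. KRT40, a hair keratin of the fibre cuticle, read 88.8, 112, 113 and 71.1 in anagen and 24.3, 30.4, 10.7 and 41.2 in telogen. All anagen libraries lay above all telogen libraries, and the difference was 1.93 (SE 0.332, adjusted p = 0.000581), 2.01 in May and 1.86 in September. KRT32 read 195, 184, 198 and 167 against 64.2, 84.6, 34.8 and 103, a difference of 1.47 (SE 0.259, adjusted p = 0.000661). KRT35, which is laid down in the forming cortex and cuticle, read 553, 481, 594 and 481 against 239, 271, 135 and 416, a difference of 1.09 (SE 0.277, adjusted p = 0.00546). The March male was the highest telogen library for each of these 3 genes and the March female the lowest, and the stages did not overlap. KRT39 was the member that did not pass, at 0.06.

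Of 10 inner root sheath genes found by name, out of 14 listed, 7 were higher and 1 lower, with a median of 1.06. KRT25 and KRT27, type I keratins of this sheath, were among the most abundant of the listed transcripts. KRT25 read 7416, 5801, 6250.1 and 5209 in anagen and 2238, 3119, 1054 and 3714 in telogen, a difference of 1.42 (SE 0.358, adjusted p = 0.0053). KRT27 read 7064, 5707, 5864 and 4832 against 1796, 2432, 739 and 3108, a difference of 1.71 (SE 0.384, adjusted p = 0.00276). KRT74, their type II partner in the sheath, read 275, 304, 319.8 and 217 against 74.5, 76.2, 39.1 and 181, a difference of 1.78 (SE 0.346, adjusted p = 0.00116). Anagen and telogen did not overlap for these keratins. TCHH, trichohyalin of the sheath, differed by 0.75 and did not pass, and GATA3, a transcription factor of sheath fate, was lower, at -0.70.

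Of 17 listed keratin-associated proteins, which cross-link the keratins of the fibre, only 3 were found by name and tested. Of these 1 was lower and 0 higher, and they do not stand for the family. KRTAP3-1 read 844, 852, 1346 and 1609.7 in anagen and 6595, 7860.2, 2269 and 2038 in telogen, a difference of -1.82 (SE 0.416, adjusted p = 0.00306). It was lower in every anagen library than in any telogen library, with the February pair highest. KRTAP11-1 read 3334, 3143, 5426 and 5999 against 4668, 7043, 1960.4 and 5597, a difference of -0.02 (SE 0.381, adjusted p = 0.969), and its groups overlapped. KRTAP15-1 differed by -0.19 and did not pass. KRTAP8-1 and KRT85 were not analysed here.

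Regulators of the hair matrix were split, 4 higher and 9 lower of 22, with a median of -0.10 against -0.07 over all genes. SELENBP1, a selenium-binding protein, read 216, 156, 182 and 226 against 89.1, 55.8, 60.9 and 129 and was higher by 1.27 (SE 0.228, adjusted p = 0.000718). DLX3, a homeobox factor of hair differentiation, read 56.5, 48.5, 54.03 and 54.5 against 109, 109, 76.3 and 77.98 and was lower, at -0.77 (SE 0.153, adjusted p = 0.00128). Both groups were separated in these genes. HOXC13 and FOXN1, factors required for hair keratin expression, overlapped between stages: HOXC13 read 107, 92.7, 132 and 143 against 109, 127, 68.1 and 144 (difference 0.12, SE 0.204, adjusted p = 0.652). FOXN1 read 47.2, 48.8, 60.5 and 63.4 against 74.2, 70.7, 34.7 and 63.7 (difference -0.10, SE 0.214, adjusted p = 0.723). VDR, the vitamin D receptor, differed by -0.13 (SE 0.115, adjusted p = 0.372). MSX2, another homeobox factor, was lower, at -0.58 (SE 0.166, adjusted p = 0.011), a call lost without both May or both February libraries (adjusted p up to 0.108).

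**Figure D2:**
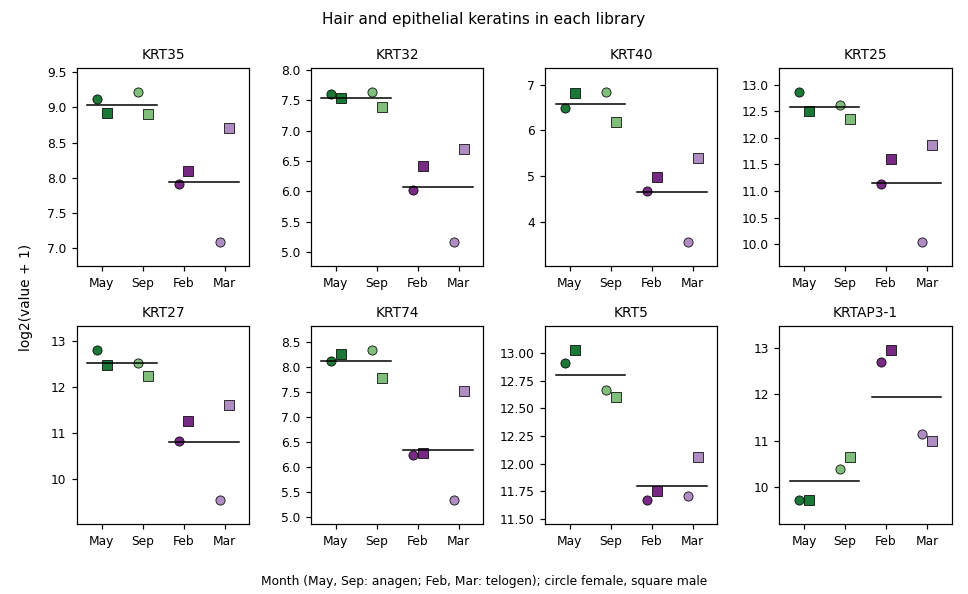
log2(value + 1) of 6 hair and inner root sheath keratins, KRT5 and KRTAP3-1 in each of the 8 libraries by month, circles for females and squares for males; the horizontal lines are stage means of 4 libraries. The keratins are higher in May and September and KRTAP3-1 is higher in February and March; KRT5 lost its call when both February libraries were left out (adjusted p = 0.0652).

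Keratins of the epidermis and outer root sheath were higher in 4 of 15 and lower in 0, with a median of 0.29. KRT5, the type II keratin of basal cells, read 7681, 8334, 6500.4 and 6231 against 3249, 3436, 3341 and 4255, a difference of 1.01 (SE 0.251, adjusted p = 0.00505), which did not pass without both February libraries (adjusted p = 0.0652). KRT6A, a keratin of the outer root sheath and companion layer, read 1110.4, 961, 791 and 874 against 367, 419, 263 and 692, a difference of 1.18 (SE 0.248, adjusted p = 0.00187). The stages were separated for both. KRT1, KRT2 and KRT10 of the differentiating epidermis did not pass, at -0.27, 0.17 and 0.19. Genes of the cornified envelope, the protein shell of dead keratinocytes, went either way, 6 higher and 4 lower of 18, with a median of 0.11 that was -0.03 under quantile normalization. ASPRV1, a protease that processes filaggrin, read 386, 360.1, 344 and 168 against 162, 100.2, 131 and 133 and was higher by 1.20 (SE 0.265, adjusted p = 0.00251). SPRR4, a small proline-rich precursor of the envelope, read 58.5, 40.8, 48.7 and 54.8 against 383, 222, 538 and 71.7 and was lower, at -2.23 (SE 0.458, adjusted p = 0.00159), with the March male closest to anagen.

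Genes known from the bulge and from follicle stem cells were lower in 13 and higher in 3 of 24, with a median of -0.27. SOX9, a transcription factor of the stem cells and outer root sheath, read 114, 92.7, 89.8 and 90.6 in anagen and 155, 156, 140.3 and 126 in telogen, a difference of -0.57 (SE 0.12, adjusted p = 0.00189). NFIB, which keeps stem cells of the bulge from differentiating, read 85.9, 89.2, 79.9 and 77.7 against 126, 129, 128 and 113 and was lower, at -0.57 (SE 0.102, adjusted p = 0.000723). CD34, a surface marker of the mouse bulge and of blood vessels, read 32.4, 27.1, 39.8 and 38.2 against 74.3, 48.05, 79.1 and 44.2 and was lower, at -0.79 (SE 0.18, adjusted p = 0.00293). In each of these genes the telogen libraries lay above the anagen libraries, and for CD34 both telogen females read above both telogen males. Endothelial genes moved with CD34, with 7 of 14 lower, and their part in its difference was not tested. POSTN, a matrix protein also made by dermal cells, read 527, 711, 539 and 482 against 1171, 981, 1275 and 714 and was lower, at -0.86 (SE 0.205, adjusted p = 0.00396). ITGB1, the integrin chain that anchors basal cells, went the other way, with 181, 157, 195 and 196 against 113, 137, 112 and 144 and a difference of 0.53 (SE 0.114, adjusted p = 0.00212). LGR5 (-0.20, SE 0.0871, adjusted p = 0.0648), NFATC1 (-0.04, SE 0.139, adjusted p = 0.816) and GAS1 (0.17, SE 0.108, adjusted p = 0.209), markers of the bulge and hair germ, did not pass. TBX1 was higher by 0.49 (SE 0.138, adjusted p = 0.0102) but not without both May or both February libraries (adjusted p up to 0.101).

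Genes named for the dermal papilla were lower in 11 and higher in 1 of 28, with a median of -0.22. FGF7, a growth factor made by the papilla for the epithelium above it, read 5.79, 4.05, 8.48 and 11.5 in anagen and 18.96, 16.98, 19.5 and 9.76 in telogen. It was lower, at -1.07 (SE 0.276, adjusted p = 0.00601), -1.52 in May and -0.63 in September, but the September male overlapped with the March male and the call was lost without both May or both February libraries (adjusted p up to 0.0903). Other papilla genes lay near the threshold. VCAN (-0.43), a proteoglycan of the papilla, passed, but not when either May or either March library, the September female or the February male was left out (highest adjusted p 0.204). CORIN (-0.27), a papilla protease, passed but lost its call without any single library other than the September male and March female (adjusted p up to 0.235). ALPL (-0.08, SE 0.196, adjusted p = 0.767), FGF10 (-0.15, SE 0.149, adjusted p = 0.414), RSPO3 (-0.32, SE 0.166, adjusted p = 0.125) and NOG (0.03, SE 0.165, adjusted p = 0.881) did not pass, at values under 5 in every library.

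Wnt signalling, in which secreted ligands stabilise beta-catenin and start follicle growth, had 21 of 62 members higher and 11 lower, with a median of 0.10. Among ligands, WNT11 read 48.04, 35.6, 43.05 and 36.2 in anagen and 13.5, 17.2, 11.6 and 24.04 in telogen, a difference of 1.29 (SE 0.19, adjusted p = 0.000275). WNT10B, which promotes entry into anagen in mice, read 8.53, 4.83, 6.53 and 4.61 against 2.45, 2.15, 1.84 and 4.41, a difference of 0.95 (SE 0.214, adjusted p = 0.00269). For both ligands the lowest anagen library lay above the highest telogen library, the March male, and for WNT10B only just. WNT5A, a ligand of the non-canonical branch, read 33.8, 26.9, 29.3 and 24.8 against 30.9, 27.1, 35.1 and 32.1 and did not pass (-0.13, SE 0.114, adjusted p = 0.368). CTNNB1, which encodes beta-catenin, read 499, 505, 471 and 400.3 against 207, 238, 202 and 315 and was higher by 0.98 (SE 0.162, adjusted p = 0.000484). APCDD1, an inhibitor at the receptor, read 192, 219, 215 and 186 against 139, 108, 143 and 151 and was higher by 0.59 (SE 0.123, adjusted p = 0.00171). All 4 transcription factors of the TCF/LEF family, TCF7, TCF7L1, TCF7L2 and LEF1, were lower, at -0.51, -0.69, -1.07 and -0.44. The LEF1 call ended when the May male or either February library was left out (highest adjusted p 0.204). AXIN2, a common target gene, was higher by 0.90. SOSTDC1, which blocks both Wnt and BMP ligands, read 46.7, 48.7, 47.2 and 31.4 against 61.4, 59.4, 60.5 and 74.8 and was lower, at -0.56 (SE 0.154, adjusted p = 0.00852), a call lost without both September or both March libraries (adjusted p up to 0.0534). DKK1, a secreted inhibitor, was lower, at -0.56 (SE 0.216, adjusted p = 0.0419). This call ended in 12 of 20 alternatives (adjusted p up to 0.223), among them quantile normalization and each single library left out other than the September female or March male.

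Hedgehog signalling, in which the ligand SHH made by the matrix acts through PTCH1 and SMO on GLI factors, had 8 of 17 members lower and 1 higher, with a median of -0.23. SHH read 3.8, 2.56, 3.38 and 4.05 in anagen and 5.48, 6.37, 6.2 and 4.52 in telogen. Every telogen library was above every anagen library, at low values in both, and the difference was -0.58 (SE 0.137, adjusted p = 0.00361), -0.68 in May and -0.49 in September. DHH, another ligand, known from Schwann cells, read 8.81, 6.66, 7.6 and 7 against 14.7, 15.96, 13.5 and 15.6 and was lower, at -0.91 (SE 0.131, adjusted p = 0.000248). Schwann cell genes moved with it, with 8 of 14 lower and 2 higher, and their part in the difference was not tested. SMO, the signal transducer, was the member that was higher, with 22.4, 19.4, 19.7 and 16.3 against 11.8, 9.34, 11.3 and 14.9 and a difference of 0.68 (SE 0.145, adjusted p = 0.00197). GLI3, mainly a repressor, read 11.2, 9.84, 9.14 and 8.48 against 16.2, 16.1, 17.9 and 12.7 and was lower, at -0.65 (SE 0.117, adjusted p = 0.000747). GLI1, a target of the pathway, was lower, at -0.37 (SE 0.135, adjusted p = 0.0331) with a call that ended when the May male, September male or March female was left out (highest adjusted p 0.226). PTCH1, receptor and target, read 43.9, 37.01, 42.8 and 36.7 against 37.3, 49.7, 51.8 and 48.3 and did not pass (-0.21, SE 0.114, adjusted p = 0.136).

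BMP and TGF-beta signalling, in which BMPs hold the follicle at rest and also drive hair differentiation, had 9 of 43 members higher and 14 lower, with a median of -0.14. The ligands BMP4 and BMP2 read 36.4, 38.3, 41.5 and 38.5 against 31.3, 32.3, 28.9 and 32.4 and 22.2, 18.3, 24.3 and 23.9 against 19.02, 22.02, 12.1 and 19.5. BMP4 was higher by 0.30 (SE 0.105, adjusted p = 0.0283), which did not hold when the May male, September female or either telogen female was left out, nor with equal library sums or without mitochondrial and ribosomal protein transcripts (adjusted p up to 0.161). BMP2 did not pass (0.30, SE 0.17, adjusted p = 0.158). BMPR2, the type II receptor, read 45.04, 43.96, 44.7 and 48.1 against 88.8, 93.9, 93.98 and 63.1 and was lower, at -0.87 (SE 0.129, adjusted p = 0.000282), with the anagen libraries within a narrow range. The target ID1 read 116, 104, 125 and 148 against 79.7, 87.1, 67.5 and 71.3 and was higher by 0.68 (SE 0.151, adjusted p = 0.00262). ID2, of the same family of inhibitors of helix-loop-helix factors, read 46, 38.01, 57.99 and 66.5 against 95.3, 108, 95.6 and 64.2 and was lower, at -0.80 (SE 0.184, adjusted p = 0.00325), with the September male above the March male, and did not pass without both May or both February libraries (adjusted p up to 0.0553). ID3 was higher by 0.83 (SE 0.286, adjusted p = 0.0261) with a call that ended when either September library or either telogen female was left out (highest adjusted p 0.345). SMAD1, SMAD4, SMAD5 and SMAD9 were lower, at -0.65, -0.62, -0.37 and -0.61, and the inhibitory SMAD6 and SMAD7 were higher, at 0.82 and 0.62.

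Notch signalling, which acts between neighbouring cells and shapes the hair layers, had 9 of 20 members higher and 4 lower, with a median of 0.13. The ligand JAG1 read 103, 93.6, 90.2 and 89.8 in anagen and 64.9, 56.8, 55.2 and 85.8 in telogen, a difference of 0.53 (SE 0.125, adjusted p = 0.00337). RFNG, a glycosyltransferase that modifies the receptors, read 65.6, 67.7, 63.7 and 58.2 against 48.5, 35.3, 46.6 and 48.6, a difference of 0.51 (SE 0.11, adjusted p = 0.00205). RBPJ, the DNA-binding partner of the receptors, read 38.8, 44.7, 40.8 and 41.7 against 68.7, 66.1, 70.2 and 49.97 and was lower, at -0.60 (SE 0.107, adjusted p = 0.000736). The stages were separated for all 3 genes. LFNG, JAG2 and NOTCH3 were higher by 1.38, 1.01 and 1.21.

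FGF, EGF and IGF genes, growth factors and receptors of epithelium and mesenchyme, were higher in 9 and lower in 13 of 41, with a median of -0.09. FGF21, an endocrine FGF best known from liver, read 10.04, 18.3, 14.8 and 12.8 in anagen and 1.55, 1.75, 1.06 and 4.83 in telogen. It was among the 12 genes named for the largest rise shared by both months, at 2.27 in May and 2.29 in September, and 2.28 (SE 0.34, adjusted p = 0.000287) in all. Without the September female FGF21 no longer passed in both months. FGF5, whose loss lengthens hair by delaying the end of anagen, read 4.28, 3.41, 3.12 and 4.19 against 1.58, 4.11, 0.49 and 4.53 and did not pass (0.55, SE 0.337, adjusted p = 0.185). In telogen both females read lower in FGF5 than both males. FGF18, a signal of the resting bulge in mice, read 4.02, 2.45, 2.65 and 2.79 against 2.28, 2.53, 1.4 and 3.22 and did not pass (0.26, SE 0.211, adjusted p = 0.319). EGFR, the receptor of EGF, read 107, 104, 96.8 and 93.3 against 142, 157, 119 and 148 and was lower, at -0.49 (SE 0.103, adjusted p = 0.00197). IGFBP3, which binds IGF1, read 57.95, 62.6, 53.01 and 44.4 against 88.7, 94.5, 111 and 73.9 and was lower, at -0.74 (SE 0.166, adjusted p = 0.00265). IGF1 and IGF2 were lower, at -0.53 and -0.83.

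**Figure D3:**
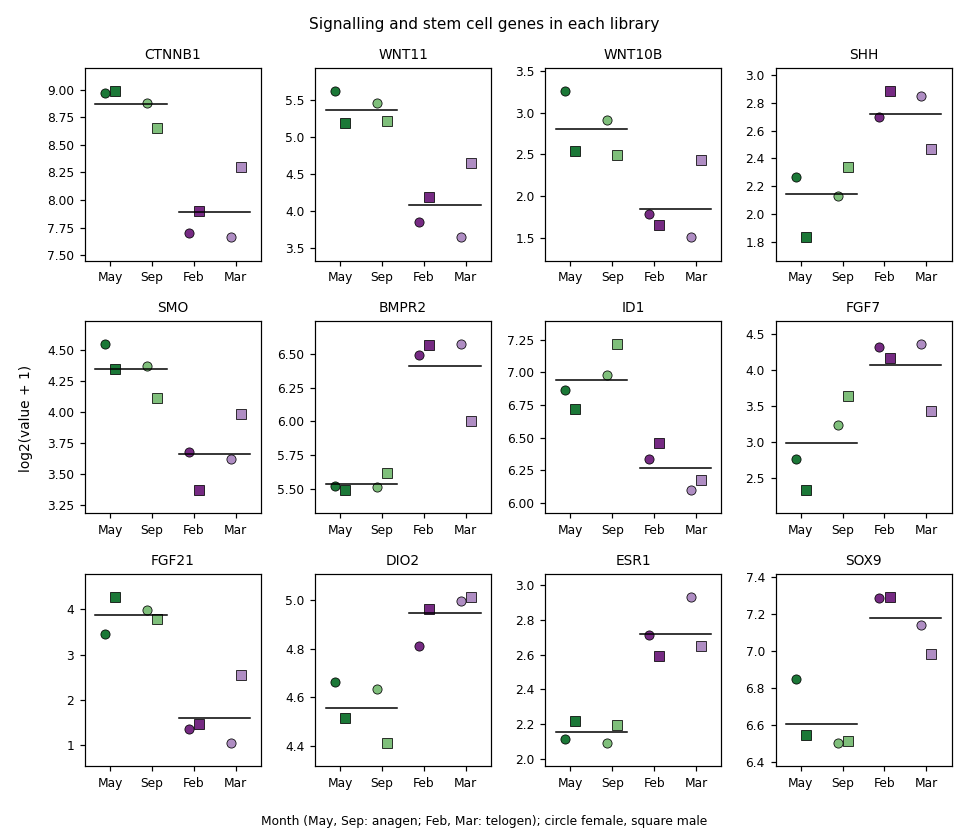
log2(value + 1) of 12 signalling and stem cell genes in each of the 8 libraries by month, circles for females and squares for males; horizontal lines are stage means of 4 libraries. CTNNB1, WNT11, WNT10B, SMO, ID1 and FGF21 are higher in anagen and SHH, BMPR2, DIO2, ESR1 and SOX9 higher in telogen without overlap, whereas FGF7 overlaps. Lack of overlap was a condition for naming FGF21.

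Receptors for the hormones and vitamins through which season and diet act on skin were higher in 5 and lower in 9 of 26, with a median of -0.13. PRLR, the receptor of prolactin, a hormone that follows day length, read 57.7, 62.9, 49.2 and 44.3 in anagen and 115, 82.5, 123 and 76.8 in telogen, a difference of -0.86 (SE 0.165, adjusted p = 0.00105), -0.68 in May and -1.04 in September. JAK2, the kinase on which it acts, read 24.6, 26.3, 27.5 and 32.5 against 41.9, 42.7, 43.7 and 34.4 and was lower, at -0.54 (SE 0.117, adjusted p = 0.00225). Telogen was above anagen in every library for both, and both telogen females read above both males in PRLR. DIO2, which activates thyroid hormone, read 24.3, 21.9, 23.8 and 20.3 against 27.03, 30.2, 30.9 and 31.3 and was lower, at -0.39 (SE 0.0955, adjusted p = 0.00446). ESR1, the oestrogen receptor alpha, read 3.33, 3.66, 3.26 and 3.58 against 5.56, 5.04, 6.63 and 5.27 and was lower, at -0.57 (SE 0.105, adjusted p = 0.000886). NR3C1, the glucocorticoid receptor, read 39.8, 41.4, 39.1 and 39.98 against 60.4, 59.04, 69.4 and 44.2 and was lower, at -0.51 (SE 0.114, adjusted p = 0.00263). RARG, a retinoic acid receptor of the epidermis, was in contrast higher, with 85.5, 80.5, 71.3 and 66.8 against 43.7, 37.5, 44.8 and 53.9 and a difference of 0.75 (SE 0.123, adjusted p = 0.000465). PPARG, a receptor for fatty acid ligands, was lower, at -1.60, and DIO3, which inactivates thyroid hormone, was higher by 1.53.

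Clock genes, which run the daily cycle and also vary with the hair cycle, were lower in 10 and higher in 3 of 22, with a median of -0.32. BHLHE40, a repressor in the clock, read 24.97, 26.2, 25.04 and 29.9 in anagen and 57.6, 45.97, 64.6 and 36.5 in telogen, a difference of -0.89 (SE 0.152, adjusted p = 0.000563). RORA, an activator, read 66.4, 86.9, 60.1 and 64.03 against 137, 106, 125 and 86.5 and was lower, at -0.70 (SE 0.155, adjusted p = 0.00253), with the May male and March male overlapping. NFIL3, a repressor of clock output, read 78.6, 62.8, 68.5 and 64.2 against 42.9, 46.2, 36.5 and 52.7 and was higher by 0.62 (SE 0.124, adjusted p = 0.00141). PER2 (0.24, SE 0.117, adjusted p = 0.0942) and NR1D1 (-0.40, SE 0.197, adjusted p = 0.105) did not pass. The hour of sampling is not given in the labels.

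Of 30 DNA replication genes 13 were higher and 5 lower, with a median of 0.27, and of 32 mitosis genes 3 were higher and 10 lower, with a median of -0.19. MCM7, of the helicase that opens DNA for replication, read 71.7, 68.4, 70.3 and 64.5 in anagen and 42.03, 46.7, 43.4 and 50.7 in telogen, a difference of 0.58 (SE 0.091, adjusted p = 0.000366). MCM3, of the same helicase, read 28.8, 31.9, 35.97 and 28.04 against 16.4, 16.1, 18.4 and 26, a difference of 0.69 (SE 0.142, adjusted p = 0.00168). DUT, which keeps uracil out of DNA, read 85.99, 82.3, 103 and 96.9 against 36.2, 51.6, 45.7 and 54.7 and was higher by 0.96 (SE 0.143, adjusted p = 0.000281). These replication genes were separated between the stages. TPX2, a factor of spindle assembly, read 20.1, 19.6, 20.4 and 23.01 against 29.5, 36.7, 33.1 and 28.8 and was lower, at -0.60 (SE 0.0915, adjusted p = 0.000329). MKI67, a marker of cycling cells, read 13.6, 14.1, 11.4 and 11.6 against 16.6, 17.1, 18.9 and 14.1 and was lower, at -0.37 (SE 0.126, adjusted p = 0.0248). Its stages met at the May male and March male, and its call ended when either September library, the February male or the March female was left out (highest adjusted p 0.212). TOP2A, which untangles DNA, was lower, at -0.49 (SE 0.16, adjusted p = 0.0215) with a call that ended when either May library or the February male was left out (highest adjusted p 0.234). PCNA (0.29, SE 0.162, adjusted p = 0.141) and CCNB1 (0.37, SE 0.178, adjusted p = 0.0971) did not pass, and in telogen both read higher in the males than in the females.

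More genes of ribosome production were higher than lower in anagen, 28 against 6 of 51 biogenesis factors, with a median of 0.29. Their summed values overlapped between the stages, at 2304, 2188, 2485 and 2676 in anagen and 2275, 2617, 2155 and 2498 in telogen. In a split by name made with the values known, 8 genes with RRP names were higher in 7 and lower in 0 cases, with a median of 2.27. The other 43 were higher in 21 and lower in 6, with a median of 0.22. Among these, NCL was lower (adjusted p = 0.00259), at -0.55 to -0.34 in the 21 alternatives. FBL and NOP56 passed as higher but lost their calls in 12 and 13 of 21. RRP36, a processing factor of ribosomal RNA, read 27.96, 28.8, 27.5 and 26.1 in anagen and 5.03, 4.18, 4.35 and 3.5 in telogen, a difference of 2.45 (SE 0.0999, adjusted p = 4.01e-08). RRP12, which helps export ribosomal subunits, read 16.1, 14.3, 16.7 and 15.4 against 1.17, 1.13, 1.73 and 2.04, a difference of 2.74 (SE 0.132, adjusted p = 1.73e-07). RRP1 and RRP7A, also processing factors, read 27.7, 33.1, 31.7 and 30.9 against 3.57, 4.04, 3.12 and 5.87 and 12.6, 12.5, 15.7 and 15.2 against 1.08, 0.98, 0.94 and 1.94. The spread within each stage was small next to the gap between stages. The March male was the highest telogen library for RRP12, RRP1 and RRP7A, far from the others for RRP7A, and the lowest for RRP36. It stayed well below every anagen library in these genes, which were named by a rule that required separated stages. RRP8 differed by 0.10 and did not pass. NOC4L and NOP10, also of nucleolar complexes, were lower. NOC4L read 29.7, 31.2, 35.2 and 39.6 against 90.7, 146, 91.1 and 131, a difference of -1.70 (SE 0.189, adjusted p = 0.000119), and NOP10 read 55.1, 42.6, 80.7 and 111 against 186, 195, 164 and 134, a difference of -1.30 (SE 0.235, adjusted p = 0.000781).

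Of 75 cytosolic ribosomal proteins 34 were higher and 5 lower, with a median of 0.43 that was 0.24 under quantile normalization. RPL39, of the large subunit, read 1836, 1397, 1386 and 758 in anagen and 97.4, 144, 96.2 and 194 in telogen, a difference of 3.32 (SE 0.388, adjusted p = 0.000134). RPL23A, also of the large subunit, went the other way, with 1583, 1455, 1822 and 2592 against 4881, 5642, 4615 and 3034 and a difference of -1.29 (SE 0.261, adjusted p = 0.0015). Subunits of 1 complex thus stood on opposite sides with no overlap between the stages, which the naming rule required of RPL39. These genes have many near-identical copies in mammalian genomes, and how reads were shared among copies is not given, so the value of a single gene is uncertain.

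**Figure D4:**
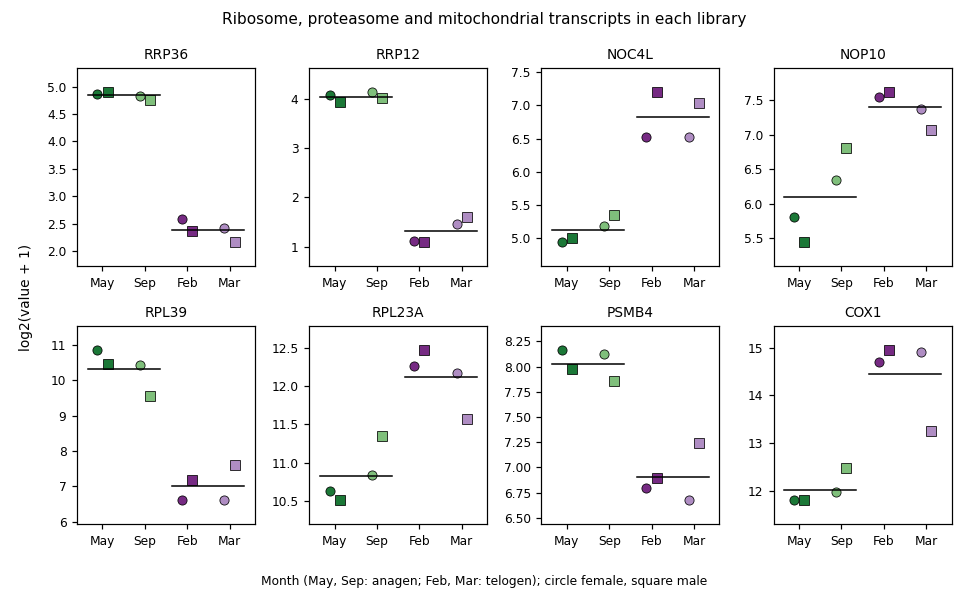
log2(value + 1) of ribosome, proteasome and mitochondrial transcripts in each of the 8 libraries by month, circles for females and squares for males; horizontal lines are stage means of 4 libraries. RRP36, RRP12, RPL39 and PSMB4 are higher in anagen, and NOC4L, NOP10, RPL23A and COX1 are lower, with the March male closest to anagen for COX1.

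Nuclear and mitochondrial genes of the respiratory chain differed in opposite directions. Of 57 nuclear genes of the chain and ATP synthase 36 were higher and 2 lower, with a median of 0.51, and all 13 tested transcripts of the mitochondrial genome were lower, with a median of -2.52. ATP5A1, of the catalytic part of ATP synthase, read 436, 424, 404 and 361 in anagen and 187, 228, 172 and 248 in telogen, a difference of 0.97 (SE 0.151, adjusted p = 0.00036). ATP5B read 391, 373, 435 and 405 against 237, 244, 221 and 334, a difference of 0.65 (SE 0.149, adjusted p = 0.00315). The subunit ATP6 of the same enzyme, which is encoded in the mitochondrial genome, read 686, 595, 849 and 1155 against 8268, 10266, 9039 and 2059.8 and was lower, at -2.99 (SE 0.437, adjusted p = 0.000264). COX1, of complex IV, read 3563, 3556, 4028 and 5722 against 26708, 31455, 30611 and 9813 and was lower, at -2.44 (SE 0.41, adjusted p = 0.000522). In both mitochondrial genes the March male read well below the other telogen libraries and above every anagen library. The share of mitochondrial signal in a library moves with stage, and its part in other differences is seen only through the alternative without these transcripts, in which the calls of the genes printed here with every value were kept unless stated.

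Glycolysis genes were higher in 10 and lower in 0 of 21, with a median of 0.20. PGK1 read 130.1, 143, 134 and 135 in anagen and 63.01, 71.2, 63.95 and 84.7 in telogen, a difference of 0.94 (SE 0.129, adjusted p = 0.000207). TPI1 read 223, 221, 275 and 285 against 172, 164, 162 and 181, a difference of 0.55 (SE 0.122, adjusted p = 0.00249). Both are enzymes of sugar breakdown, and neither overlapped between stages. In cholesterol synthesis 9 of 21 genes were higher and 3 lower, with a median of 0.20. FDPS, which makes farnesyl diphosphate, read 147, 128, 148 and 124 against 54.1, 52.8, 49.9 and 78.9, a difference of 1.22 (SE 0.152, adjusted p = 0.000154). INSIG1, a sensor that restrains the pathway, read 156, 141, 158 and 100. against 54.9, 51.1, 44.4 and 69.3, a difference of 1.32 (SE 0.199, adjusted p = 0.00031). The mevalonate enzymes MVK, PMVK and MVD were higher, at 1.39, 1.76 and 1.46, and SC5D, EBP and NSDHL of the later steps were lower, at -0.60, -0.39 and -0.46. MSMO1, also of the later steps, was higher (adjusted p = 0.00311), at 0.48 to 0.67 in the 21 alternatives, and kept its call in each. Of the list 8 genes were higher in both months and 0 lower. The EBP call ended in 7 of 21 alternatives, with an adjusted p of up to 0.159, including those that left out the September, February or March female, and the SC5D call without both May or both February libraries (adjusted p up to 0.0631). Sebaceous and lipid genes were lower in 11 and higher in 4 of 29, with a median of -0.33. ELOVL4, which elongates very long chain fatty acids, read 131, 149, 72.8 and 74.8 against 354, 210.4, 358 and 166 and was lower, at -1.34 (SE 0.285, adjusted p = 0.002), with both telogen females above both males. FABP5, a fatty acid carrier of keratinocytes, read 429, 536, 462 and 566 against 213, 304, 222 and 324 and was higher by 0.92 (SE 0.194, adjusted p = 0.00189).

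Proteasome subunits were higher in 23 and lower in 1 of 31, with a median of 0.64. PSMB4 read 285, 251, 279 and 231 in anagen and 110.3, 118, 101 and 150.2 in telogen, a difference of 1.13 (SE 0.158, adjusted p = 0.000221). PSMA7 read 228, 193, 216 and 205 against 109, 138, 105 and 158, a difference of 0.73 (SE 0.144, adjusted p = 0.00124). The lower member was PSMD12, at -0.48. Apoptosis genes went either way, 6 higher and 9 lower of 30, with a median of -0.18. DIABLO, which is released from mitochondria in cell death, read 40.6, 32.8, 47.4 and 51.1 against 72.3, 89.2, 70.1 and 58.05 and was lower, at -0.74 (SE 0.154, adjusted p = 0.0017). Immediate early and heat shock genes, which respond to handling as well as to growth signals, were higher in 7 and lower in 7 of 29, and their median of 0.03 changed sign under each rescaling. JUN read 104, 85.6, 108 and 115 against 70.3, 39.9, 59.8 and 73.2 and was higher by 0.78 (SE 0.164, adjusted p = 0.00184). HSPA5, a chaperone of the endoplasmic reticulum, read 271, 242, 278 and 266 against 129.9, 142, 126 and 200.2 and was higher by 0.84 (SE 0.145, adjusted p = 0.000591). EGR1, EGR3 and ZFP36 were lower, at -0.91, -0.77 and -1.01.

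Among the 12 genes named for the largest rise shared by both months were 3 small proteins of stratified epithelium. These 12, and the 12 falls below, were ranked only among genes separated between the stages, with a mean value of at least 5 and no LOC symbol. S100A7A read 132, 296, 384 and 292 in anagen and 7.92, 1.47, 21.1 and 10.7 in telogen, a difference of 4.89 (SE 0.523, adjusted p = 0.000111), or 26.8-fold between stage means. S100A2 read 2033, 1650.3, 1482 and 821 against 145, 196, 99.5 and 342, a difference of 3.0 (SE 0.426, adjusted p = 0.000232). MT4, a metallothionein, read 1650.4, 1386, 2863 and 1938 against 188, 310.0, 85.9 and 642, a difference of 2.98 (SE 0.51, adjusted p = 0.000569). All 3 were separated between stages, as the naming rule required, and their telogen libraries varied several-fold among themselves. S100A7A passed in both months in all 17 alternatives, whereas S100A2 failed to in 1 and MT4 in 3. TMEM160 and FAM213B, a prostaglandin synthase, were higher by 2.30 (SE 0.272, adjusted p = 0.000137) and 2.37 (SE 0.266, adjusted p = 0.000124). Of the 12 largest falls under this rule, 8 were mitochondrial transcripts, and the others were SPRR4, MUCL1, FAM216B and CDR1. SPRR4 no longer passed in both months in 5 of 17 alternatives, and MUCL1 only without the September female. FAM216B and CDR1 passed in both months in all 17. FAM216B read 20.5, 19.98, 21.2 and 27.2 against 94.98, 129, 82.4 and 96.2 and was lower, at -2.12 (SE 0.176, adjusted p = 2.65e-05). CDR1 read 6.82, 5.5, 8.72 and 12.1 against 52.2, 61.7, 44.6 and 23.1 and was lower, at -2.29 (SE 0.289, adjusted p = 0.000157). CDR1 lies opposite an abundant antisense transcript, and whether strand was used in the counting is not given. MUCL1, a small mucin-like protein of glands, read 0, 0, 3.12 and 13.4 against 119, 66.9, 34.6 and 42.7 and was lower, at -4.43 (SE 1.07, adjusted p = 0.00415), a call lost without both May or both February libraries (adjusted p up to 0.0715). Of 5 sweat gland markers 1 was higher (AQP5) and 3 were lower, MUCL1 among them, with summed values of 242, 342, 202 and 187 in anagen and 348, 248, 327 and 238 in telogen, and the part of gland tissue in the difference of MUCL1 was not tested.

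Genes that belonged to May alone were those that passed against telogen in May, did not in September and differed between the months. There were 16 higher (0.0994%) and 1 lower (0.00621%). Most are structural or metabolic genes of skeletal muscle, and 13 members of the skeletal muscle list fell in this class. TNNC2, the calcium sensor of fast muscle, read 71.4, 66.97, 0.64 and 0.85 in anagen and 1.5, 0.67, 0.9 and 1.09 in telogen. Only the May libraries were high, at 5.12 above telogen against -0.21 in September, and the months differed by -5.33 (September minus May, SE 0.265, adjusted p = 1.55e-05). MYLPF, a myosin light chain, read 63.3, 63.3, 0.87 and 0.77 against 1.82, 1.58, 0.61 and 1.48, with a difference between months of -5.14 (SE 0.262, adjusted p = 1.55e-05). CKM, the muscle creatine kinase, read 19.5, 17.3, 0.97 and 1.5 against 0.77, 0.78, 0.94 and 0.82, with a difference between months of -3.13 (SE 0.21, adjusted p = 0.000134). ACTA1, TNNI2, TNNT3, MYL1 and ENO3 were likewise high in both May libraries, 3.91, 3.88, 3.78, 3.55 and 1.78 above telogen. The remaining 8, outside the naming rule and given because the class is small, were MYL2, MYOZ1, LOC102180883, CA3, ATP2A1, MB, TTN and PIGY. PIGY, of the enzyme complex that starts glycolipid anchors, read 1.35, 2.51, 0 and 0.01 against 0, 0, 0 and 0.17, near the lower limit of the values. The single lower gene was ACTA2, actin of smooth muscle, with 103, 79.7, 234 and 222 against 244, 245, 185 and 162 and a difference between months of 1.32 (SE 0.155, adjusted p = 0.00932). The count of May genes was 6 with 0.1 in place of 1 added to the values and 9 with a minimum of 5 or with the 8 libraries alone. Leaving out the May male gave 10, the September female 7 and the September male 8. TNNC2, MYLPF, ACTA1 and TNNT3 stayed in the class under all 17 alternatives, and CKM left it under quantile normalization. The other 12 left it in 1 to 10 alternatives each; ACTA2 did so with the 8 libraries alone and without the May male, September female or September male, and TTN, ENO3 and PIGY left it most often, in 10, 10 and 9.

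Not all muscle genes belonged to May. TNNT1, troponin T of slow muscle, read 13.7, 16.04, 20.8 and 12.4 in anagen and 8.3, 5.78, 4.86 and 7.49 in telogen and was higher in both months (1.08 and 1.20; 1.14 in all, SE 0.198, adjusted p = 0.00061). TNNT1 no longer passed in both months without the May male or without the September female. TCAP, which caps titin, read 14.3, 9.45, 13 and 10.2 against 6.52, 3.77, 2.18 and 5.8, a difference of 1.25 (SE 0.277, adjusted p = 0.00246). The summed values of the 24 skeletal muscle genes were 384, 368, 157 and 152 in anagen and 109.8, 107, 74.3 and 84.8 in telogen, with MYL1 at 0 in 1 library of each stage. DES, which is also on the smooth muscle list, held much of the September sum: without it the sums were 360.0, 350.5, 68.6 and 63.4 against 59.8, 55.96, 46.9 and 61.2. The median of the list was 1.27 in May and -0.07 in September. The part of muscle tissue in other differences of the May libraries was not tested, and the shared genes above are given with May and September apart.

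September alone had 3 higher genes (0.0186%) and no lower gene in limma, where 205 and 151 genes had an unadjusted p under 0.05 for the same pattern; the number of September genes was 2 to 5 with 1 library left out, the 5 without the May female. ACADSB, an enzyme of branched-chain amino acid breakdown, read 12.7, 13.7, 32.02 and 44.2 in anagen and 15.99, 13.9, 23.04 and 16.7 in telogen. Both September libraries were above every other library of these 8, 1.09 above telogen, and the months differed by 1.45 (SE 0.195, adjusted p = 0.0221). ACADSB left the class in 6 of 17 alternatives, with equal library sums, with the 8 libraries alone and without the May female, May male, September male or March male (adjusted p between the months up to 0.228), and both genes that follow stayed in it under all 17. LOC102176710 read 0.91, 1.66, 56.1 and 54.8 against 1.09, 0.67, 0.8 and 2.2, and the months differed by 4.65 (SE 0.292, adjusted p = 8.67e-05). LOC102168680 read 0.74, 0.31, 65.4 and 66.7 against 1.54, 0.76, 0.46 and 0.47, and the months differed by 5.47 (SE 0.228, adjusted p = 6.6e-06). Both protein-coding LOC genes, named outside the rule, were near 0 in May and in telogen and high in September, and their catagen libraries read 56.5, 56.5, 97.3 and 61.2 and 42.6, 28.5, 95.3 and 84.7. A set of 8 genes (0.0497%) passed in opposite directions in the months, namely APOD, DES, C3, CCL26, PPP1R14A, FADS3, CSRP3 and CCL19. DES, desmin of muscle, read 23.6, 17.7, 88.6 and 88.7 against 50.04, 50.97, 27.5 and 23.6, -0.78 in May and 1.28 in September; the May call was lost without the May male and the September call without the September female (adjusted p up to 0.111 and 0.0522). CSRP3 no longer passed in opposite directions without either May library or the September female, and APOD and C3 failed to do so in 7 of 17 alternatives each, PPP1R14A and FADS3 in 11, CCL26 in 12 and CCL19 in 14, each with single libraries left out among them. DES and CSRP3 also passed the test between the months, and the other 6 did not.

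**Figure D5:**
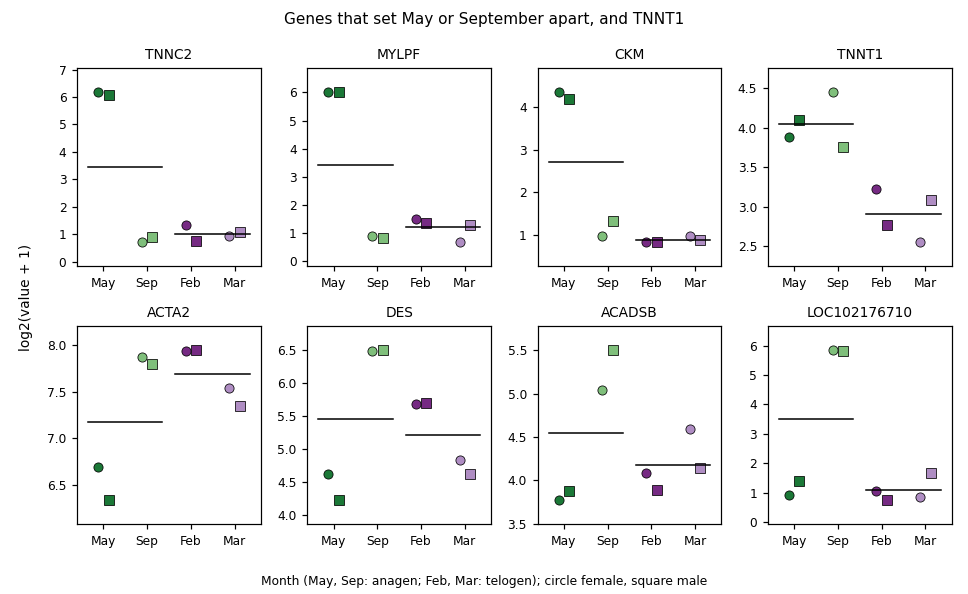
log2(value + 1) in each of the 8 libraries by month, circles for females and squares for males, of 3 muscle genes of May alone, TNNT1, ACTA2, DES and 2 genes of September alone; horizontal lines are stage means of 4 libraries and fall between the months where the months differ. TNNC2, MYLPF and CKM are high in May only, ACADSB and LOC102176710 in September only, and TNNT1 in both anagen months.

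Markers of other cells that the samples could hold differed between stages. Endothelial genes were lower in 7 and higher in 1 of 14, with a median of -0.56 and summed values of 219, 199, 204 and 234 in anagen against 339.8, 206, 410.2 and 214 in telogen. EMCN, a sialomucin of veins and capillaries, read 10.3, 9.45, 13.5 and 18.1 against 38.8, 32.9, 40 and 19.7 and was lower, at -1.28 (SE 0.245, adjusted p = 0.00105), while CLDN5, of the tight junctions of vessels, read 13.5, 15.3, 15.04 and 13.1 against 7.32, 6.89, 9.35 and 6.78 and was higher by 0.84 (SE 0.132, adjusted p = 0.000384). The summed endothelial values were high in both telogen females and overlapped with anagen in the males. Of 14 Schwann cell genes 8 were lower and 2 higher, with a median of -0.55 and summed values of 256, 265, 241 and 232 against 362, 312, 359 and 259. PMP22, a protein of peripheral myelin, read 33.6, 21.6, 34.05 and 38.4 against 92.9, 90.3, 83.3 and 52.98 and was lower, at -1.29 (SE 0.189, adjusted p = 0.000259).

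Of 13 T cell genes 5 were lower and 1 higher, with summed values of 41.3, 43.3, 44.6 and 52.9 against 76.3, 96.7, 64.5 and 84.7 and a median of -0.17 that was 0.08 under quantile normalization. GZMA, a granzyme of cytotoxic cells, read 15.3, 17.6, 17.5 and 18.2 against 42.7, 57.9, 35.5 and 45.8 and was lower, at -1.34 (SE 0.173, adjusted p = 0.000169). CD3D, of the T cell receptor complex, read 6.28, 8.17, 6.36 and 7.51 against 10.4, 12.3, 10.3 and 11.6 and was lower, at -0.59 (SE 0.106, adjusted p = 0.000728). GZMA and CD3D were separated between stages, and CCL5 of this list was at 0 in 1 anagen library. GZMA held much of the summed values, and the sums without it were not compared. Of the 13 differences 9 were negative and 4 positive. The largest positive difference was that of LCK, with 3.2, 1.86, 3.76 and 3.43 against 1.43, 2.11, 1.51 and 2.03. Myeloid genes were lower in 4 and higher in 1 of 13, with summed values of 70.3, 63.6, 79.1 and 109 against 108, 89.5, 122 and 72.8 and a median near 0 whose sign changed with the scaling. CD68, a lysosomal protein of macrophages, read 4.36, 5.03, 3.73 and 4.38 against 10.5, 8.23, 10.8 and 6.81 and was lower, at -0.89 (SE 0.154, adjusted p = 0.000598). CD68 does not stand for the myeloid list, in which 7 differences were positive and 6 negative. The higher member, S-LZ, stood in for the listed LYZ through a synonym, so it may not be the intended marker. It read 7.55, 2.21, 10.97 and 14.66 against 1.49, 3.31, 1.87 and 3.37 (difference 1.31, adjusted p = 0.0116). Its stages overlapped at the May male, and its call ended without both September or both February libraries (adjusted p up to 0.169).

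Melanocyte genes were higher in 3 and lower in 5 of 16, with a median of -0.07, that of all genes, and summed values of 370.2, 385, 393 and 402 against 324, 318, 301 and 302. Without ASIP, which is made by the papilla, the sums were 128, 145, 133 and 156 against 159, 132, 145 and 121 and overlapped. MITF, the master transcription factor of pigment cells, read 28.1, 27.4, 27.97 and 29.9 against 41.4, 39.9, 41.1 and 33.4 and was lower, at -0.44 (SE 0.0945, adjusted p = 0.00209). ASIP, a secreted antagonist of pigment signalling, read 242, 239.9, 260.4 and 246 against 164, 187, 157 and 180.4 and was higher by 0.52 (SE 0.119, adjusted p = 0.00293). TYR, tyrosinase, stayed under 3 in all 8 libraries and did not pass (-0.51, SE 0.237, adjusted p = 0.0872). EDNRB, an endothelin receptor, was higher by 1.38 (SE 0.354, adjusted p = 0.00577), a call lost without both September libraries (adjusted p = 0.0614). Smooth muscle genes were higher in 1 and lower in 2 of 12, with medians of -0.76 in May and 0.37 in September and summed values of 779, 609, 1445 and 1444 against 1295, 1302, 1141 and 884. Collagen and matrix genes were higher in 6 and lower in 4 of 26, with a median of 0.03 that was below 0 in every rescaling. COL6A2 read 132, 118, 118 and 92.4 against 48.7, 58.8, 59.1 and 82.5 and was higher by 0.89 (SE 0.196, adjusted p = 0.00244), and BGN, the proteoglycan biglycan, read 77.4, 51.8, 72.03 and 87.03 against 128, 196, 109.7 and 134 and was lower, at -0.96 (SE 0.186, adjusted p = 0.00116). Adipocyte markers were higher in 1 and lower in 2 of 7, with a median that changed sign under quantile normalization, and erythrocyte markers higher in 1 and lower in 1 of 3, with HBM at 0 in 1 library of each stage. The part of these cell types in the stage differences above was not tested.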

How the data were processed

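RNA of the follicles was sequenced in 12 libraries, 8 of which are compared here. Per the file headers the deposited values are TPM; their sums differ between libraries, so they were treated as a rescaled signal, made by the authors with kallisto 0.46.1 and sleuth 0.30.0 per the submitters' processing notes. The genome build, strand and scaling steps are not given in the sources used here. Symbols were taken by gene number from a RefSeq table, which matched 20294 of 20326 genes. Members of the gene lists were matched by symbol, then by synonym, and those not found were left out of the counts.

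Genes reaching 1 in 2 or more of the 12 libraries were tested as log2(value + 1) in limma 3.58.1 (R 4.3.3) with a mean-variance trend, with 1 group per stage, or 1 per month for the months, and Benjamini-Hochberg adjustment. The fits were run on simulated data with independent noise. That setting lacks deviations shared between libraries, as seen in February and March, so it cannot show how far the calls hold here. Genes named were 12 shared genes each way, up to 8 each way of 1 month alone, up to 5 called members per list by abundance, and a fixed set. The shared genes were those with the largest change in the weaker month that passed between the stages without any overlap of libraries. Shared genes and genes of 1 month alone needed a mean value of at least 5 over the 8 libraries and no LOC symbol. Others given by a difference alone were chosen after their values were seen. Some genes that met this rule are not reported here. The members and lists were chosen with earlier results of these data known. No 2 libraries had equal values in more than 1.55% of genes. Alternatives were other added constants, filters and scalings, the 8 libraries alone, sex as a block, and libraries or months left out.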

Additional observations from a re-analysis of the deposited data

Results flagged for a closer look

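In 514 groups of 4 libraries searched, 19 held a library far from the other 3, where chance would mark about 1 in 20. In telogen the March male was highest for RRP7A (1.94), KRT8 (60.6), SOSTDC1 (74.8), NOTCH2 (54.6), FDPS (78.9) and PIGY (0.17) and lowest for ND2 (454) and BMPR2 (63.1). The March female was highest for ATP1B1 (115) and NR1D1 (18.0). The February female was lowest for VCAN (21.5), MSMO1 (71.7) and NCAM1 (11.5), and the February male for RFNG (35.3). In anagen the September male was highest for ND1 (339), FAM216B (27.2) and SC5D (61.2) and lowest for SOSTDC1 (31.4), and the May female was highest for SOX9 (114).

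The months differed by a direct test in 22 genes. September minus May was -5.33 for TNNC2, -5.14 for MYLPF, -4.0 for MYL1, -3.95 for ACTA1, -3.56 for TNNT3, -3.13 for CKM and -3.04 for TNNI2. Smaller differences of the same sign were -2.84 for MYL2, -2.25 for MYOZ1, -1.99 for LOC102180883, -1.89 for CA3, -1.69 for ENO3, -1.57 for MB, -1.51 for PIGY, -1.47 for ATP2A1, -1.39 for TTN and -1.23 for CSRP3. Higher in September were LOC102168680 (5.47), LOC102176710 (4.65), DES (2.06), ACADSB (1.45) and ACTA2 (1.32).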

How the results depend on the processing

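Of 204 named genes that passed between the stages, 116 kept their call in every alternative run and 88 lost it in at least 1; none of them reversed. Lower genes numbered 2790 without both February libraries. Genes shared by both months ranged from 113 to 2974 (higher) and 111 to 3128 (lower) with 1 library left out, and 1554 were lower in May against March and September against February. Genes of May alone ranged from 7 to 24 and of September alone from 2 to 5 with 1 library left out; genes of May alone were 6 with 0.1 added, 9 with a minimum of 5 and 9 with the 8 libraries alone. With no filter 3778 genes were higher and 6102 lower, and with equal library sums 3155 and 4732. The cause of these changes was not tested.

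The replicate number, which marks sex, was not used to pair the libraries. Same-numbered deviations correlated at 0.44 between February and March and at -0.06 to 0.15 between the other months. The telogen libraries of the same sex thus shared part of their deviations. A block common to all months does not cover a sex difference confined to telogen, which was not tested. With the replicate number as a block 3846 genes were higher and 4778 lower, against 3811 and 4701. Those of both months numbered 2397 and 2530, against 2400 and 2497. May alone held 14 genes against 17, and September alone 3 against 3. The block ended the stage call of 4 of the 204 named genes, with adjusted p of 0.0504 for DKK1, 0.0518 for COL6A1, 0.0532 for LDH-A and 0.0502 for RFC4.

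Reversals occurred only in genes that did not pass. With 1 library left out, differences ranged from -0.40 to 0.21 for KRTAP11-1, -0.10 to 0.25 for HOXC13, -0.342 to 0.016 for FOXN1, -0.153 to 0.043 for NFATC1, -0.203 to 0.058 for ALPL and -0.069 to 0.12 for NOG. Quantile normalization gave 0.065 for KRTAP11-1 and 0.029 for ALPL, and NOG was -0.016 without mitochondrial and ribosomal protein transcripts. Without both May libraries KRTAP11-1 was 0.39 and FOXN1 0.083; without both September libraries HOXC13 was -0.11, NFATC1 0.15, ALPL 0.045 and NOG -0.041. Without both February libraries KRTAP11-1 was 0.38, FOXN1 0.21, FGF10 0.00050 and NOG -0.13, and without both March libraries HOXC13 was -0.0041 and NFATC1 0.059. Depth, which is not known, limits the genes with values near 1.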
